A study of Mus musculus with 24 samples.

Results

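Tubular injury and repair genes were followed in the ageing kidney. The set held 10 genes: Havcr1, Lcn2, Spp1, Vcam1, Krt8, Krt18, Krt20, Clu, Sox9 and Timp1. They were taken by symbol from a table of counts for 55401 genes, and all 10 were found and tested in every comparison. After removal of ribosomal RNA, total RNA was sequenced from kidney, left ventricle and skeletal muscle of C57BL6/J mice aged 86 weeks or 16.5 weeks. Each age had 4 mice, 2 males and 2 females, and the mouse names recur in all 3 tissues, which gave 24 libraries. The 86-week mice were males 14 and 17 and females 11 and 12, and the 16.5-week mice were males 19 and 20 and females 14 and 15. No treatment or engineered allele is given in the labels, and they do not say which part of the kidney or which muscle was taken. Total counts were 59.2 to 82.9 M in kidney, and 52.6 to 104 M over all libraries.

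Injured kidney tubule cells lose part of their transport programme, take on a set of surface, secreted, filament and transcription factor genes, and can then divide to replace lost neighbours. Havcr1 (kidney injury molecule 1) and Lcn2 (neutrophil gelatinase-associated lipocalin) are in wide use as markers of tubular damage. Vcam1 and Spp1 are known from tubule cells that fail to complete repair, and Sox9 from tubule cells that regenerate the epithelium.

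The tissue labels matched their defining genes. The summed level of 8 kidney genes, among them Kap, Umod and Slc34a1, was 6998 to 11949.3 CPM (counts scaled to the normalised library size) in kidney, 10.5 to 47.2 CPM in left ventricle and 14.2 to 92.9 CPM in skeletal muscle. Cardiomyocyte genes summed to 7.35 to 39.7 CPM in kidney and muscle fibre genes to 6.59 to 25.9 CPM. The skeletal muscle library of 86-week male 17 stood apart, with 454 CPM of cardiomyocyte genes against 10.8 to 19.4 CPM in the other skeletal muscle libraries. In whole tissue, fewer cells of a type and less RNA per cell cannot be told apart.

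In kidney, 9 of the 10 genes had a higher estimate at 86 weeks, and none passed the threshold, an adjusted p of 0.05 in edgeR's quasi-likelihood test. Over all genes 0.112% were called, 50 of 44572. At an unadjusted p under 0.05, 5 of the 10 genes passed (Havcr1, Vcam1, Lcn2, Timp1 and Krt20), where 7.96% of all genes did. DESeq2 called 2 of the 10, Havcr1 and Vcam1, where it called 0.518% of all genes, and limma-voom called 0, where it called 0.121%. The median log2 difference of the set was 0.447, and that of all tested genes was 0.023.

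Havcr1, a surface receptor with which injured proximal tubule cells take up dying neighbours, had the largest estimate. Its kidney level was 3.27 and 4.87 CPM in 86-week males and 0.817 and 2.63 CPM in 86-week females. The 16.5-week males had 1.45 and 1.24 CPM and the 16.5-week females 0.617 and 0.835 CPM. Of the 86-week libraries, 3 lay above all 4 of the 16.5-week libraries, and that of 86-week female 11 lay among them, so the age groups overlapped. The group means were 2.90 ± 1.68 CPM at 86 weeks and 1.03 ± 0.378 CPM at 16.5 weeks (SD, n = 4 each). The log2 difference was 1.45 ± 0.28 (SE), with an edgeR adjusted p of 0.0796. With each mouse left out in turn it ranged over 1.15 to 1.70. It was 1.70 and past the threshold without female 11, the lowest 86-week library, and in no other of these fits. In a single fit of all 24 libraries it passed (edgeR adjusted p = 0.0383). Without a term for sex neither Havcr1 nor any other gene passed, and DESeq2 gave an adjusted p of 0.000202. The counts behind these levels were 74 to 449 at 86 weeks and 52 to 121 at 16.5 weeks.

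Vcam1 encodes the adhesion molecule that binds leukocyte integrin alpha 4 beta 1, and is made by activated endothelium and by injured tubule cells. It had 13.6 and 18.9 CPM in 86-week males and 12.1 and 21.9 CPM in 86-week females. At 16.5 weeks it had 7.91 and 8.81 CPM in males and 14.3 and 12.2 CPM in females. The 86-week females lay on either side of the 16.5-week females, so the ages overlapped. The log2 difference was 0.69 ± 0.16 (SE, edgeR adjusted p = 0.198). With each mouse left out in turn it ranged over 0.55 to 0.87. It was 0.87 and past the threshold without 86-week female 11, its lowest 86-week library, and in no other of these fits. In DESeq2 it passed with all mice (adjusted p = 0.0372).

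The secreted members were Lcn2, a carrier of iron-binding siderophores, Spp1 (osteopontin), Clu (clusterin, an extracellular chaperone) and Timp1, an inhibitor of matrix metalloproteinases. Lcn2 had 1.35 and 2.52 CPM in 86-week males and 2.46 and 2.74 CPM in 86-week females, against 1.41 and 1.57 CPM in 16.5-week males and 0.628 and 1.60 CPM in 16.5-week females. The highest 3 libraries were of 86-week mice, and 86-week male 14 lay within the 16.5-week range. The log2 difference of Lcn2 was 0.83 ± 0.28 (SE, edgeR adjusted p = 0.446).

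Timp1 was the 1 gene of the 10 whose kidney libraries did not overlap between the ages, where 3.52% of all genes tested did not overlap. It had 0.418 and 0.662 CPM in 86-week males and 0.563 and 0.478 CPM in 86-week females, against 0.264 and 0.319 CPM in 16.5-week males and 0.391 and 0.364 CPM in 16.5-week females. These are low levels, 38 to 61 counts at 86 weeks and 22 to 33 counts at 16.5 weeks. The log2 difference was 0.71 ± 0.27 (SE, edgeR adjusted p = 0.524).

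Spp1 and Clu were the most abundant of the set in kidney, and their ages overlapped. Spp1 ranged over 175 to 584 CPM at 86 weeks and 138 to 539 CPM at 16.5 weeks, with a log2 difference of 0.25 ± 0.12 (SE, edgeR adjusted p = 0.629). Clu ranged over 71.1 to 128 CPM at 86 weeks and 67.7 to 130 CPM at 16.5 weeks, with a log2 difference of 0.10 ± 0.09 (SE, edgeR adjusted p = 0.831). The spread within each age lay between the sexes, described below.

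Among the filament genes, Krt8 and Krt18 encode the keratin pair of simple epithelia, and Krt20 a keratin best known from gut and urothelium. Krt8 had 38.9 to 67.5 CPM at 86 weeks and 49.6 to 70.3 CPM at 16.5 weeks, a log2 difference of −0.02 ± 0.09 (SE, edgeR adjusted p = 0.976). Krt18 had 4.54 to 8.71 CPM at 86 weeks and 5.38 to 7.96 CPM at 16.5 weeks, a log2 difference of 0.04 ± 0.12 (SE, edgeR adjusted p = 0.97). Neither gene separated the ages. Krt20 had 1.08 and 1.19 CPM in 86-week males and 0.927 and 1.05 CPM in 86-week females, against 0.479 and 0.497 CPM in 16.5-week males and 0.723 and 1.21 CPM in 16.5-week females. The 16.5-week males and 16.5-week female 14 lay below every 86-week library, and 16.5-week female 15 was highest of all. The log2 difference was 0.64 ± 0.27 (SE, edgeR adjusted p = 0.571). These Krt20 levels are low, 84 to 110 counts at 86 weeks and 39 to 90 counts at 16.5 weeks. Sox9, the transcription factor of the set, had 1.77 to 2.66 CPM at 86 weeks and 1.53 to 2.44 CPM at 16.5 weeks. Its log2 difference was 0.25 ± 0.18 (SE, edgeR adjusted p = 0.778), and the ages overlapped.

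**Figure D1:**
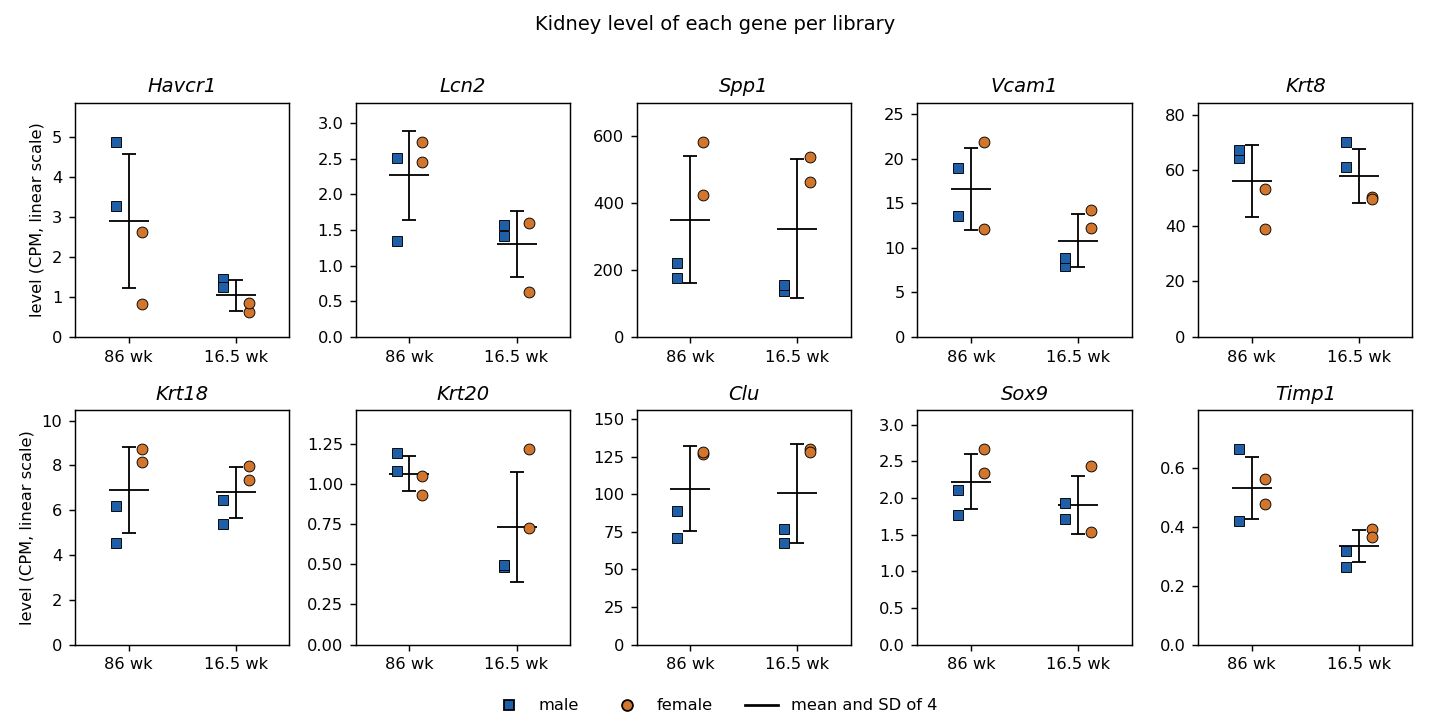
Kidney level of each of the 10 genes in CPM on a linear axis that starts at 0, with 1 point per library, squares for males and circles for females, and the mean and SD of the 4 mice of each age. Timp1 separates the 86-week from the 16.5-week libraries, Havcr1 has 3 of 4 of the 86-week libraries above every 16.5-week library, and Spp1 and Clu separate the sexes at both ages.

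The age difference was also estimated within each sex, with 2 mice against 2. None of the 10 genes passed in males, where 0.0651% of all genes were called, or in females, where 0.0628% were. At an unadjusted p under 0.05, Havcr1, Vcam1, Krt20, Spp1 and Timp1 passed in males, where 4.8% of all genes did, and Havcr1 and Lcn2 in females, where 6.65% did. Havcr1 was higher at 86 weeks in both sexes, by 1.61 ± 0.39 in males and 1.28 ± 0.41 in females (log2 ± SE, edgeR adjusted p = 0.28 and 0.505). Krt20 differed by 1.24 ± 0.33 in males and 0.08 ± 0.32 in females, and Vcam1 by 0.98 ± 0.21 in males and 0.40 ± 0.21 in females. Lcn2 had the other order, at 0.39 ± 0.36 in males and 1.28 ± 0.37 in females. The test of the age difference between the sexes called none of the 10 genes in edgeR, DESeq2 or limma-voom (0.0247% of all genes in edgeR). In edgeR, Krt20 was the 1 gene of the 10 with an unadjusted p under 0.05 (4.11% of all genes). In limma-voom 3 of the 10 had one, as did 1985 of all 44572 genes tested. The male minus female difference of Krt20 was 1.15 ± 0.46 (log2 ± SE, edgeR adjusted p = 1). The 16.5-week males 19 and 20 had 40 and 39 counts of Krt20, near the background level described below.

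Other genes of the injury response were read from lists by role, and edgeR called none of their members for age in kidney. Over all genes tested there, 7.96% had an unadjusted p under 0.05, and the median log2 difference was 0.023. Of all genes edgeR called 0.112%, DESeq2 0.518% and limma-voom 0.121%. Of 16 ligands and secreted factors, 14 had a higher estimate at 86 weeks, 7 had an unadjusted p under 0.05, DESeq2 called 2 and limma-voom 0, and the median log2 difference was 0.28. Gdf15, a stress-induced cytokine, had 3.34 ± 1.32 CPM at 86 weeks and 1.94 ± 0.801 CPM at 16.5 weeks, a log2 difference of 0.82 ± 0.18 (edgeR adjusted p = 0.154). Hbegf, a ligand of the epidermal growth factor receptor, lay the other way, with 8.31 ± 2.50 CPM at 86 weeks and 11.5 ± 4.12 CPM at 16.5 weeks (log2 difference −0.41 ± 0.10, edgeR adjusted p = 0.2). Of 12 receptors and surface proteins, 10 had a higher estimate, 4 had an unadjusted p under 0.05, no tool called one, and the median was 0.152. Cd14, a co-receptor for bacterial lipopolysaccharide, differed by 0.64 ± 0.17 and the adhesion molecule Icam1 by 0.39 ± 0.10 (edgeR adjusted p = 0.283 and 0.289).

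Of 12 transcription factors, 11 had a higher estimate at 86 weeks and 1 had an unadjusted p under 0.05 (7.96% of all genes did). No tool called one, and the median log2 difference was 0.132. Relb and Nfkb2, which together form a dimer of the non-canonical NF-kB pathway, differed by 0.29 ± 0.13 and 0.18 ± 0.11 (edgeR adjusted p = 0.616 and 0.727). Of 12 cytoskeletal and annexin genes, 9 had a higher estimate, 5 had an unadjusted p under 0.05, no tool called one, and the median was 0.276. Vim, the filament protein of mesenchymal and of dedifferentiated tubule cells, differed by 0.42 ± 0.14 and Anxa2 by 0.44 ± 0.16 (edgeR adjusted p = 0.446 and 0.473). Of 21 receptors, integrins, relatives and targets of the 10 genes, 16 had a higher estimate and 4 had an unadjusted p under 0.05. DESeq2 called 1 (0.518% of all genes) and limma-voom 0, and the median was 0.106. Itga4, the integrin chain that binds Vcam1, had 11.7 ± 2.28 CPM at 86 weeks and 8.15 ± 0.73 CPM at 16.5 weeks (log2 difference 0.55 ± 0.11, edgeR adjusted p = 0.0965).

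Most immune cell genes had higher estimates in the 86-week kidneys as well. For kidney age 7.96% of all genes had an unadjusted p under 0.05, and the median log2 difference of all genes was 0.023. The share of all genes called was 0.112% in edgeR, 0.518% in DESeq2 and 0.121% in limma-voom. Of 14 macrophage genes, 14 had a higher estimate at 86 weeks and 11 an unadjusted p under 0.05, with 0 called by edgeR, 4 by DESeq2 and 0 by limma-voom. Their summed level was 114 to 241 CPM at 86 weeks and 101 to 123 CPM at 16.5 weeks, highest in 86-week female 12, which also had the highest Vcam1, Lcn2 and Spp1. Of 10 T cell genes, 10 had a higher estimate and 9 an unadjusted p under 0.05 (0 called by edgeR, 2 by DESeq2, 0 by limma-voom), with sums of 15.7 to 22.2 CPM at 86 weeks and 10.6 to 13.6 CPM at 16.5 weeks. These T cell sums did not overlap between the ages, nor, by a narrow margin, did the B and plasma cell sums that follow. Of single genes tested in kidney, 3.52% did not overlap between the ages, and no such share was taken for sums of genes. B and plasma cell genes, 9 of 10 with a higher estimate, summed to 76.5 to 422 CPM at 86 weeks and 18.8 to 74.4 CPM at 16.5 weeks, and of them Igha, the constant region of immunoglobulin A, rose by 2.46 ± 0.40 (log2 ± SE, edgeR adjusted p = 0.0337). Of this list DESeq2 called 1 gene and limma-voom 0, so the Igha call was lost in limma-voom. Neutrophil genes, of which 8 of 9 had a higher estimate, 1 had an unadjusted p under 0.05 and no tool called one, summed to 3.93 to 4.69 CPM at 86 weeks and 3.37 to 4.14 CPM at 16.5 weeks. No gene of these lists was at 0 in every kidney library, and Retnlg, a neutrophil gene, was at 0 in 2 of the 16.5-week libraries. The part of these cells in the values of the 10 genes was not tested.

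Of the nephron lists, 3 of 20 proximal tubule genes had a higher estimate at 86 weeks. Their median log2 difference was −0.138, against 0.023 for all genes tested. Of these 20 genes 5 had an unadjusted p under 0.05, where 7.96% of all genes did. None of the 20 was called by edgeR, DESeq2 (0.518% of all genes) or limma-voom (0.121%). Their sum was 14800.6 to 21026.9 CPM at 86 weeks and 19536 to 22931.9 CPM at 16.5 weeks, lowest in 86-week female 11, the 86-week mouse with the lowest Havcr1. Of 9 thick ascending limb and distal tubule genes, 2 had a higher estimate and 3 an unadjusted p under 0.05, with 0 called by edgeR, 1 by DESeq2 and 0 by limma-voom. Of 12 collecting duct genes, 1 had a higher estimate and 9 an unadjusted p under 0.05, with a median log2 difference of −0.277. In edgeR 2 of them fell and 0 rose (0.112% of all genes called), and DESeq2 called 3 and limma-voom 2. The edgeR calls were Slc26a4, the chloride-bicarbonate exchanger pendrin of intercalated cells, by −0.80 ± 0.11 and Foxi1, their transcription factor, by −0.80 ± 0.12 (log2 ± SE, edgeR adjusted p = 0.018 and 0.0272). Fibroblast genes, 9 of 10 with a higher estimate and none called by edgeR, DESeq2 or limma-voom (2 at an unadjusted p under 0.05), summed to 317 to 553 CPM at 86 weeks and 213 to 507 CPM at 16.5 weeks, which overlap. Whether any of these lists takes part in the values of the 10 genes was not tested.

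More of the set was called for sex in kidney than for age. Of the 10 genes 5 were called by edgeR, DESeq2 and limma-voom alike, where edgeR called 7.58% of all genes. Havcr1 and Krt8 were higher in males (3.77% of all genes were), and Spp1, Clu and Krt18 were lower in males (3.81% of all genes were). The libraries of the sexes did not overlap for 4 of the 10 genes, Spp1, Clu, Krt18 and Krt8, where 10.2% of all genes tested did not overlap.

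Spp1 encodes osteopontin, a phosphorylated integrin ligand of urine and bone matrix made by several segments of the tubule. It had 175, 220, 138 and 155 CPM in the 4 males and 425, 584, 539 and 465 CPM in the 4 females, in each case the 86-week pair first. The highest male lay far below the lowest female. The means were 172 CPM in males and 503 CPM in females, and the log2 difference was −1.59 ± 0.12 (SE, edgeR adjusted p = 7.62e-07). Clu had 71.1, 89.1, 76.7 and 67.7 CPM in males and 127, 128, 130 and 128 CPM in females. The 4 females were nearly level, and every male lay below them, with a log2 difference of −0.78 ± 0.09 (SE, edgeR adjusted p = 5.85e-05).

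The keratin pair divided by sex in opposite directions. Krt8, the type II partner, had 64.6, 67.5, 61.4 and 70.3 CPM in males and 38.9, 53.2, 50.6 and 49.6 CPM in females, a log2 difference of 0.44 ± 0.09 (SE, edgeR adjusted p = 0.00867). Krt18, the type I partner, had 4.54, 6.21, 5.38 and 6.47 CPM in males and 8.16, 8.71, 7.36 and 7.96 CPM in females, a log2 difference of −0.54 ± 0.12 (SE, edgeR adjusted p = 0.0124). All males were therefore above all females for the first gene and below them for the second. The ratio of the keratins must then separate the sexes too, so it restates both differences and is not a further result. Per kilobase of transcript, the level of Krt8 over that of Krt18 was 8.68 ± 1.16 in males and 4.40 ± 0.647 in females (SD, n = 4 each). The ranges were 7.98 to 10.4 in males and 3.50 to 5.04 in females. The ratio did not separate the ages, at 6.59 ± 3.19 at 86 weeks and 6.49 ± 1.96 at 16.5 weeks. In a single fit of all 24 libraries neither keratin passed (edgeR adjusted p = 0.122 for Krt8 and 0.206 for Krt18). Without 86-week male 14 the edgeR adjusted p of Krt18 was 0.0537.

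Havcr1 had a mean of 2.71 CPM in males and 1.22 CPM in females, and the libraries overlapped because 86-week female 12 lay above both 16.5-week males. Its log2 difference of 1.06 ± 0.28 (SE, edgeR adjusted p = 0.0293) lost its call under 4 alternatives. The edgeR adjusted p was 0.11 without 86-week male 17, 0.068 without 16.5-week female 14, 0.0703 without 16.5-week male 19 and 0.0737 with no filter on low counts. Vcam1 had a log2 difference of −0.38 ± 0.16 and was not called (edgeR adjusted p = 0.239). With each mouse left out in turn it ranged over −0.57 to −0.28, and it passed without 86-week female 11 alone. Lcn2, Krt20, Sox9 and Timp1 were not called, with log2 differences of −0.05, −0.38, −0.28 and −0.18.

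**Figure D2:**
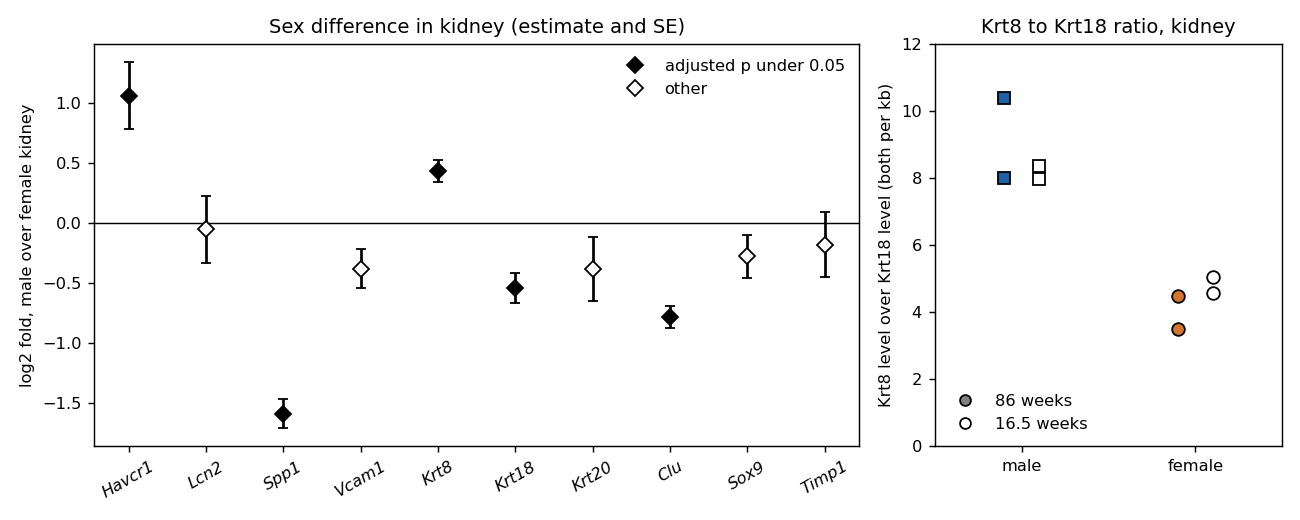
Left, log2 difference of male over female kidney with its SE for each of the 10 genes, filled where the edgeR adjusted p is under 0.05; right, the Krt8 level over the Krt18 level, both per kilobase of transcript, in each kidney library, filled at 86 weeks and open at 16.5 weeks. Havcr1 and Krt8 lie above the line of no difference and Spp1, Clu and Krt18 below it. The ratio, which restates both keratin differences, is 7.98 or more in every male and 5.04 or less in every female.

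Members of the lists by role were also called for sex, where 3.77% of all genes were higher and 3.81% lower in males. Among receptors and surface proteins 0 rose and 4 of 12 fell, among transcription factors 0 rose and 2 of 12 fell, and among cytoskeletal genes 0 rose and 3 of 12 fell. Among ligands 3 rose and 2 fell of 16, and among integrins, relatives and targets 2 rose and 6 fell of 21. Of 20 proximal tubule genes 6 were higher and 4 lower in males. Of 9 thick ascending limb and distal tubule genes 0 were higher and 5 lower, of 12 collecting duct genes 1 was higher and 5 lower, and of 6 podocyte genes 0 were higher and 5 lower. Of 10 fibroblast genes 4 were lower in males, and of 14 macrophage genes edgeR, DESeq2 and limma-voom called none. Of these macrophage genes 7 had an unadjusted p under 0.05 in edgeR, as did 7634 of all 44572 genes tested. The summed thick ascending limb and distal tubule level was 4731.3 to 6016.5 CPM in males and 6183.2 to 7461.9 CPM in females. Its part in the sex differences of Spp1, Clu and Krt18 was not tested.

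The start sites of the keratin pair and of Spp1 are shown because these genes separated the sexes at both ages. Clu did so too, but no promoter sequence for it was in the source used. Krt8 (GRCm38 chr15:101996698-102004482, minus strand) and Krt18 (chr15:102028180-102032027, plus strand) are protein-coding neighbours whose 5′ ends face each other across 23.7 kb. Spp1 lies at chr5:104435118-104441050 on the plus strand. The stretches before the starts, from RefSeq on GRCm38.p6 and ended before any annotated exon, are for Krt8 chr15:102004483-102004592, for Krt18 chr15:102027966-102028179 and for Spp1 chr5:104434861-104435110, each written 5′ to 3′ on its gene's strand.
Krt8: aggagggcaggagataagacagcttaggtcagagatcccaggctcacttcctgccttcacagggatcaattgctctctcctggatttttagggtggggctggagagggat
Krt18: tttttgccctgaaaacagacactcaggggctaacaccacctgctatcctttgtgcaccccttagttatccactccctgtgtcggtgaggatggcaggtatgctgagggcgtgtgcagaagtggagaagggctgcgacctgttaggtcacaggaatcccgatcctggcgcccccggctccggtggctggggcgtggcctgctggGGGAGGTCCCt
Spp1: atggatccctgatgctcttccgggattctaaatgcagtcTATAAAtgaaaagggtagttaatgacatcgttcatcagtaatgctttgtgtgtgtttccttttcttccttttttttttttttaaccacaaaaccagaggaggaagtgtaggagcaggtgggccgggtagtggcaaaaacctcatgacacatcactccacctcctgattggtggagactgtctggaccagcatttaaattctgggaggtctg
Capitals mark a match to the NF-kB motif in Krt18, whose first base is 11 bases from the end of the stretch, and a TATAAA in Spp1, whose first base is 211 bases from the end of the stretch. A match to the NF-kB motif, on either strand, occurred in 6.14% of all promoter windows of the same length, and TATAAA on the gene's strand in 7.55%. The other motifs searched were TGANTCA (AP-1), AACAAT (SOX) and TTCNNNGAA (STAT), on either strand, and the Krt8 stretch held no match to any of them. Neither the full palindromes of the androgen and oestrogen response elements nor the androgen half-site AGAACA was found on either strand in the stretches of Krt8, Krt18 and Spp1. The androgen palindrome occurs in 0.00922%, the oestrogen palindrome in 0.0645% and AGAACA in 16.0% of 32544 windows of 250 bases. A match is a description of the letters and not a bound site.

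Near-identical copies and overlapping genes bear on these counts. The processed pseudogene Krt8-ps is 98.6% identical to Krt8 over 941 bases and had 1.02 ± 0.211 CPM in males and 0.702 ± 0.136 CPM in females, far below Krt8 itself. Gm5200 is 90.5% identical to Krt18 over 1267 bases and had 0.36 ± 0.0798 CPM in males and 0.257 ± 0.165 CPM in females. Its counts overlapped between the sexes, at 26 to 38 in males and 12 to 42 in females, and its sex difference was not tested. Gm42793 shares exon bases with Spp1 on the same strand and had 0.616 CPM in males and 1.15 CPM in females. Timp1 (chrX:20870166-20874735, plus strand) lies inside Syn1, which is on the opposite strand and shares no exon base with it. Whether counting used the strand is not given in the sources used here.

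In left ventricle none of the 10 genes was called for age by edgeR, DESeq2 or limma-voom, where edgeR called 0.0741% of all genes. Only Vcam1 had an unadjusted p under 0.05 (3.37% of all genes did). The median log2 difference of the set was 0.175, against 0.007 for all genes. Vcam1 had 21.8 and 13.45 CPM in 86-week males and 21.5 and 21.6 CPM in 86-week females, against 16.5 and 13.0 CPM in 16.5-week males and 12.5 and 10.7 CPM in 16.5-week females. Of the 86-week libraries 3 were nearly level and above all 16.5-week libraries, and male 17 lay within the 16.5-week range. The log2 difference was 0.57 ± 0.16 (SE, edgeR adjusted p = 0.575). With each mouse left out in turn it ranged over 0.46 to 0.76. It was 0.76 and past the threshold without male 17, the lowest 86-week library, and in no other of these fits. The left ventricle of male 17 also had the lowest fibroblast sum, 542 CPM, and a macrophage sum of 192 CPM against 254 to 284 CPM in the other 86-week left ventricles; their part in the Vcam1 value was not tested. Sox9 had 2.26 to 4.84 CPM at 86 weeks and 2.19 to 3.44 CPM at 16.5 weeks, and Timp1 0.302 to 1.51 CPM at 86 weeks and 0.373 to 0.794 CPM at 16.5 weeks, with male 17 lowest at 86 weeks for both.

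In skeletal muscle none of the 10 genes was called for age by edgeR, DESeq2 or limma-voom, where edgeR called 0.0183% of all genes. Only Clu had an unadjusted p under 0.05 (5.51% of all genes did), and it was lower at 86 weeks. It had 24.2 and 18.5 CPM in 86-week males and 25.2 and 20.5 CPM in 86-week females, against 33.8 and 26.5 CPM in 16.5-week males and 30.6 and 25.5 CPM in 16.5-week females. The ages did not overlap, by a narrow margin (2.71% of all genes tested did not overlap), and the log2 difference was −0.37 ± 0.12 (SE, edgeR adjusted p = 0.763). With each mouse left out in turn, 86-week male 17 among them, it stayed between −0.43 and −0.28 and was not called. Vcam1 had 4.32 to 6.38 CPM at 86 weeks and 3.89 to 5.73 CPM at 16.5 weeks, which overlap. The median log2 difference of the set was −0.0289, against 0.017 for all genes.

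Whether the age difference itself differed between tissues was tested in all 24 libraries. None of the 10 genes was called by edgeR, DESeq2 or limma-voom, where edgeR called 0.0319% of all genes. Havcr1 and Clu had an unadjusted p under 0.05 in edgeR, as did 1909 of all 46984 genes tested. The age difference of Havcr1 in kidney exceeded that in left ventricle by 1.07 ± 0.40 and that in skeletal muscle by 1.27 ± 0.40 (log2 ± SE). Its edgeR p over both was 0.00774 unadjusted and 0.951 adjusted. The age difference of Clu in kidney exceeded that in left ventricle by 0.02 ± 0.20 and that in skeletal muscle by 0.46 ± 0.20. Its edgeR p over both was 0.0494 unadjusted, and it was far from the threshold after adjustment. For Vcam1 these values were 0.08 ± 0.28 and 0.40 ± 0.28. A p that misses the threshold does not show that the tissues age alike.

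**Figure D3:**
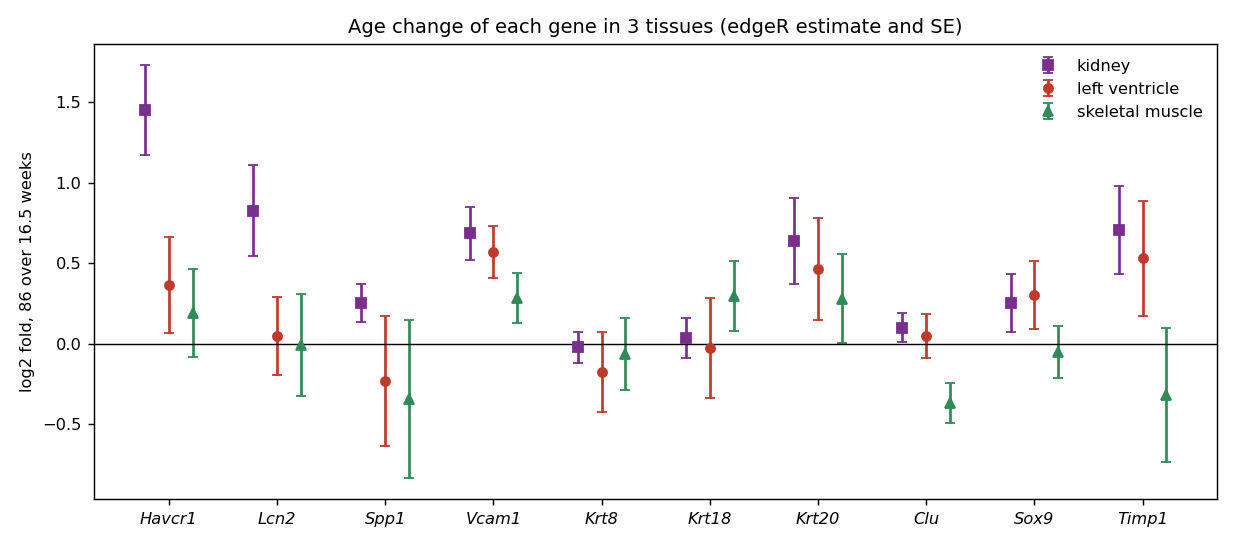
Log2 difference of 86 over 16.5 weeks with its SE for each of the 10 genes in kidney, left ventricle and skeletal muscle, each from the edgeR fit of its own 8 libraries. Havcr1 in kidney has the largest value, 1.45, Vcam1 is above 0 in all 3 tissues, and Clu in skeletal muscle lies at −0.37.

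The 3 tissues held very different amounts of these genes. Of the 10 genes, kidney over left ventricle called 8 (33.6% of all genes), with 5 higher in kidney (19.3% of all genes were) and 3 lower (14.3%). Kidney over skeletal muscle also called 8 (43.5% of all genes), with 7 higher (22.1% of all genes) and 1 lower (21.4%). The genes higher in kidney than in both were Spp1, Krt8, Krt18 and Havcr1, and Sox9 was lower in kidney than in both. Spp1 was higher by 8.49 ± 0.34 over left ventricle and 8.49 ± 0.34 over skeletal muscle, and Krt8 by 5.49 ± 0.14 and 5.24 ± 0.14 (log2 ± SE). Krt18, its partner, was higher by 2.90 ± 0.16 and 2.84 ± 0.16. The ratio of Krt8 to Krt18 per kilobase, 3.50 to 10.4 in kidney, was 0.657 to 1.42 in left ventricle and 0.687 to 1.96 in skeletal muscle.

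Clu was in between, at −1.39 ± 0.10 against left ventricle and 1.96 ± 0.10 against skeletal muscle. Vcam1 in kidney differed from left ventricle by −0.27 ± 0.14 (edgeR adjusted p = 0.143) and was higher than in skeletal muscle by 1.35 ± 0.14. The first of these passed under 3 alternatives, a filter of at least 1 CPM in 4 libraries, a filter at the background level of olfactory receptor genes and leaving out 86-week mouse 17 (edgeR adjusted p = 0.0088, 0.00351 and 0.00534). Sox9 was lower in kidney by −0.68 ± 0.14 against left ventricle and −0.55 ± 0.14 against skeletal muscle (edgeR adjusted p = 0.000304 and 0.00274). Timp1 in kidney was lower than in left ventricle, by −0.85 ± 0.24 (edgeR adjusted p = 0.00561). That call was lost without 86-week mouse 12 (0.055) or 16.5-week mouse 19 (0.0611), both edgeR adjusted p. Krt20, higher in kidney than in left ventricle by 0.58 ± 0.20 (edgeR adjusted p = 0.0267), and Lcn2, higher in kidney than in skeletal muscle by 0.68 ± 0.22 (edgeR adjusted p = 0.0136), each lost its call under several alternatives. Under the filters of 1 CPM and of olfactory genes the edgeR adjusted p was 0.0607 and 0.0857 for Krt20 and 0.0741 and 0.0825 for Lcn2. With single mice left out it was 0.0658 to 0.126 for Krt20 and 0.0539 to 0.0704 for Lcn2 in edgeR, where the call was lost.

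To compare genes with each other, levels were divided by transcript length and set beside 1103 olfactory receptor genes, taken as background because their best known site of use is the nose. In kidney the order was Spp1, 224 ± 122 CPM per kilobase, Clu, 56.4 ± 15.7, Krt8, 29.1 ± 5.47, Krt18, 4.77 ± 1.01, Vcam1, 3.95 ± 1.36, and Lcn2, 1.95 ± 0.788 (SD, n = 8). Havcr1 followed at 0.968 ± 0.74, then Sox9 at 0.498 ± 0.0952, Timp1 at 0.490 ± 0.148 and Krt20 at 0.464 ± 0.153 CPM per kilobase. By mean and SD, Spp1, Clu, Krt8 and Krt18 stood apart from one another, while each gene from Krt18 down overlapped the next in order. By mean, all 10 lay above 0.257, the 95th percentile of the olfactory receptor genes in kidney. Krt20 had 0.249 CPM per kilobase in 16.5-week male 19 and 0.258 in 16.5-week male 20.

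In left ventricle Clu led with 143 ± 23.7 CPM per kilobase, followed by Vcam1 with 4.72 ± 1.34, Lcn2 with 1.54 ± 0.318, Timp1 with 0.905 ± 0.455, Sox9 with 0.797 ± 0.209, Krt8 with 0.637 ± 0.143, Krt18 with 0.629 ± 0.218 and Krt20 with 0.307 ± 0.090. From Lcn2 to Krt18 each gene overlapped the next by mean and SD. In skeletal muscle the order was Clu, 14.1 ± 2.73 CPM per kilobase, Vcam1, 1.51 ± 0.276, Lcn2, 1.17 ± 0.349, Krt8, 0.759 ± 0.143, Sox9, 0.725 ± 0.0995, Krt18, 0.66 ± 0.125, Spp1, 0.560 ± 0.406, Krt20, 0.502 ± 0.138, and Timp1, 0.354 ± 0.221, and from Vcam1 down each gene overlapped the next. Havcr1, at 0.292 ± 0.0615 CPM per kilobase, lay below the olfactory 95th percentile of 0.301 in left ventricle, and at 0.348 ± 0.0767 below that of 0.354 in skeletal muscle. Timp1 did not exceed it in skeletal muscle either. The mean of Krt20 in left ventricle, 0.307 ± 0.090, lay just above 0.301. At this depth Havcr1 in both striated tissues, Krt20 in left ventricle and Timp1 in skeletal muscle could not be told from that background. Spp1 had 0.629 ± 0.542 CPM per kilobase in left ventricle, and in both striated tissues its highest libraries carried traces of kidney genes. The left ventricle of 16.5-week male 20 had 2.74 CPM of Spp1 and 47.2 CPM of the 8 kidney genes, and that of 86-week male 14 had 1.49 CPM of Spp1 and 24 CPM of those genes, while the other 6 had 10.5 to 14.2 CPM of those genes. The skeletal muscle of 16.5-week male 19 had 2.16 CPM of Spp1 and 92.9 CPM of the 8 kidney genes. Their part in the Spp1 values was not tested.

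**Figure D4:**
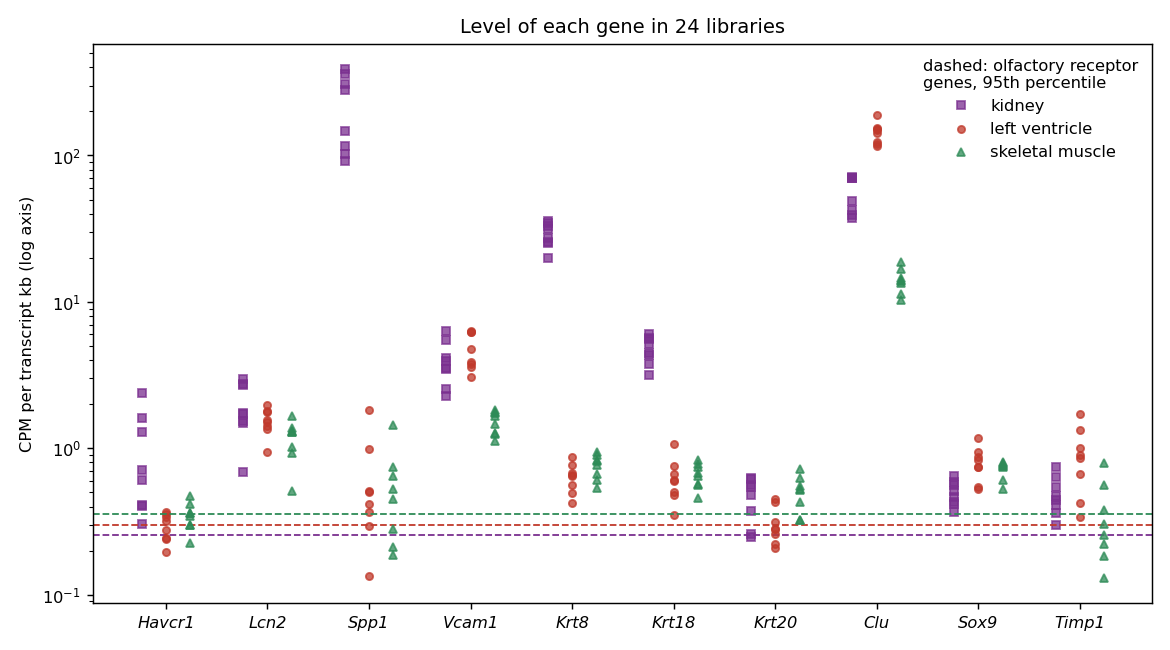
Level of each of the 10 genes in CPM per kilobase of transcript, on a log axis, with 1 point per library in kidney (squares), left ventricle (circles) and skeletal muscle (triangles); dashed lines mark the 95th percentile of olfactory receptor genes in each tissue. Spp1, Krt8 and Krt18 lie apart in kidney, Clu is highest in left ventricle, and Havcr1 in left ventricle and skeletal muscle scatters around the dashed lines.

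**Figure D5:**
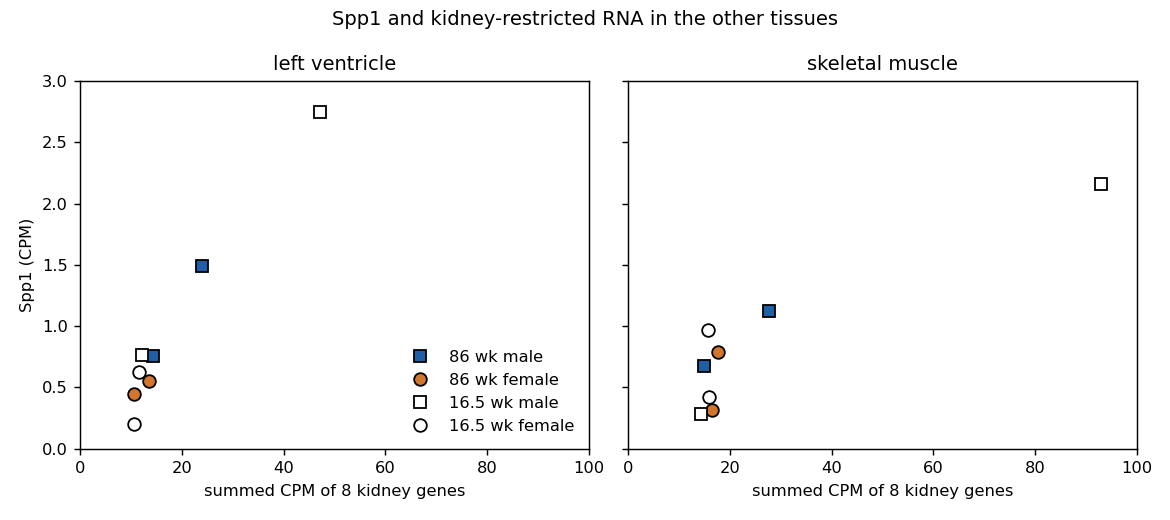
Spp1 level in CPM against the summed level of 8 kidney genes in CPM, 1 point per library, in left ventricle and in skeletal muscle. In each tissue the library with the most RNA of kidney genes, 47.2 and 92.9 CPM, also has the most Spp1, 2.74 and 2.16 CPM.

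The genes most like Havcr1, Lcn2 and Vcam1 were sought across the 8 kidney libraries among 16288 genes, by Pearson's r of log2 CPM and as a description only. Nearest to Havcr1 were Rassf2 (r = 0.97), C4b (0.96) and Ubash3b (0.953). Nearest to Lcn2 were Csf2rb (r = 0.955), Lif (0.951) and Psd4 (0.95), and nearest to Vcam1 were Arhgap23 (r = 0.983), Lrrc32 (0.98) and Tgfbi (0.972). The 8 libraries share 4 groups of age and sex.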

How the data were processed

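Counts per gene were deposited by the authors as whole numbers for 24 libraries. Per the submitters' processing notes, STAR 2.7.6a, StringTie 2.1.1 and build GRCm38.p6 were used, and the annotation release and the way counts were made are not given in the sources used here. The deposited counts were tested with edgeR 4.0.16 (R 4.3.3): TMM normalisation, filterByExpr, quasi-likelihood F-tests, two-sided p-values adjusted by Benjamini-Hochberg over all genes tested, threshold 0.05. Age and sex were tested as additive terms in the 8 libraries of a tissue, and their interaction with that term added. Tissues were compared in all 24 libraries. Printed levels are CPM on TMM sizes set over the 24 libraries, levels are given with their SD and log2 differences with their SE, and lengths come from GENCODE M21, which held 54349 of the identifiers. The fits were tested on simulated data with known changes, set in genes above the lowest counts. False calls were 22 of 198 for kidney age, 14 of 178 for left ventricle age and 21 of 182 for skeletal muscle age. They were 16 of 184 for kidney sex, 15 of 108 for age by sex and 11 of 147 for the age difference between tissues. Changes of 2-fold were recovered at 17% for age by sex, 41% for the age difference between tissues and 62 to 96% for the other comparisons.

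Each replicate is a separately named mouse. The labels put the same mouse in all 3 tissues, so mice pair the tissues, although deviations from the group means had correlations of −0.0884 to 0.172 between tissues of a mouse. Alternatives were DESeq2 1.42.0, limma-voom (limma 3.58.1), RLE factors, no filter, at least 1 CPM in 4 libraries, mitochondrial genes left out, no sex term, a single fit of 24 libraries, the mouse as a replicate block, and each mouse left out. A filter on the 95th percentile of olfactory receptor genes was added after seeing the data. The 10 genes, the other lists and the tests were chosen with earlier results of these data known. Every one of the 10 genes is named. From each other list up to 4 members past the threshold for kidney age are named, or else up to 2 with the smallest p. Likeness was ranked among genes with a mean of at least 1 CPM, without predicted models. Copies were sought with BLAST 2.17.0 (at least 90% identity over 100 bases).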

Additional observations from a re-analysis of the deposited data

Results flagged for a closer look

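Of 60 groups of 4 libraries examined, 2 held a library far from the other 3, by Dixon's criterion on the gap over the group's range, and chance gives about 1 in 20 groups. Both were libraries of 86-week male 17. Its Vcam1 level in left ventricle was 13.45 CPM, against 21.46 to 21.81 CPM in the other 3 mice of that age. Its Sox9 level in skeletal muscle was 2.193 CPM, against 3.095 to 3.268 CPM in the other 3. That skeletal muscle library also carried 454 CPM of cardiomyocyte genes, where the other 86-week muscles had 12.5 to 17.7 CPM, and its fibroblast sum was 348 CPM, where they had 580 to 698 CPM. The part of these in the flagged values was not tested.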

How the results depend on the processing

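Of single-gene values for the 10 genes, 621 kept direction and side of the threshold under the alternatives other than leaving out a mouse, 6 gained the call, 7 lost it and 3 turned sign. The 3 were Krt8 for kidney age with at least 1 CPM in 4 libraries (0.000644), Krt18 for left ventricle age in limma-voom (0.0358) and Lcn2 for skeletal muscle age under the olfactory filter (0.0208), all near 0. The 10 genes called for kidney age, 0 in edgeR, were 2 with DESeq2 and 1 in the fit of 24 libraries. Those called for kidney sex, 5, were 3 in that fit. The cause was not tested.

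Counts of all genes called moved more. For kidney age, 50 became 231 with DESeq2, 1 with no filter, 28 in the fit of 24 libraries and 0 without a sex term. For left ventricle age, 33 became 73 with DESeq2, 18 with no filter and 61 under the olfactory filter. For skeletal muscle age, 8 became 89 with DESeq2, 0 with no filter, 2 under the olfactory filter, 25 in the fit of 24 libraries and 1 without a sex term. For age by sex, 11 became 35 with DESeq2, 5 with limma-voom, 1 with no filter and 6 under the olfactory filter. For the age difference between tissues, 15 became 62 with DESeq2, 7 with RLE, 5 with no filter, 45 with the filter of 1 CPM and 48 under the olfactory filter. The filters test other numbers of genes. The kidney sex calls, 1680 higher and 1700 lower in males, were 2492 and 1553 with no filter, 1571 and 958 in the fit of 24 libraries and 1533 and 1196 with RLE. With the mouse as a replicate block, pairing the tissues, 20 genes were called for the age difference between tissues, 15507 for kidney over left ventricle and 19846 for kidney over skeletal muscle, and no call among the 10 genes changed.

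With each mouse left out in turn, genes called ranged over 19 to 69 for kidney age, 24 to 117 for left ventricle age, 1 to 43 for skeletal muscle age, 6 to 33 for age by sex and 4 to 26 for the age difference between tissues. The 10 genes called ranged over 0 to 2 for kidney age and 0 to 1 for left ventricle age. The lone mouse of an age and sex was then taken to vary like the others. Log2 values that turned sign ranged, for kidney age, over −0.0873 to 0.0465 (Krt8) and −0.0217 to 0.142 (Krt18). For left ventricle age they ranged over −0.123 to 0.305 (Lcn2), −0.514 to 0.375 (Spp1), −0.343 to 0.0623 (Krt8), −0.259 to 0.381 (Krt18) and −0.0820 to 0.169 (Clu). For skeletal muscle age they ranged over −0.330 to 0.176 (Lcn2), −0.699 to 0.355 (Spp1), −0.206 to 0.0762 (Krt8) and −0.124 to 0.0369 (Sox9). For kidney sex Lcn2 ranged over −0.340 to 0.181 and for kidney over skeletal muscle Krt20 over −0.211 to 0.0106. For age by sex they ranged over −0.245 to 1.34 (Havcr1), −0.0601 to 0.294 (Krt8) and −0.658 to 0.0249 (Sox9). None of these values was called.

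Low counts limit several of the 10 genes, and the filters of 1 CPM and of olfactory genes removed some genes in some comparisons, which then gave no value. With 2 mice per age and sex, differences within a sex are imprecise.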
